A study of Mus musculus with 7 samples.

Results

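Transcripts of 10 BCL2 family genes were followed in CD8 T cells labelled as wild type or as knockout for ACLY, the cytosolic enzyme that makes acetyl-CoA from citrate. The genes were chosen by name, not by their values: the pro-survival genes Bcl2, Bcl2l1 and Mcl1, the pore-forming genes Bax and Bak1, and the BH3-only genes Bcl2l11, Bid, Bad, Bbc3 and Pmaip1. All 10 were found among the 16156 genes of the deposited tables, and all passed the filter on low counts, which removed 0 genes. The series holds 7 RNA-seq libraries, 3 labelled ACLY KO and 4 labelled WT, both on the C57Bl/6 strain. Both groups were labelled as OT-I cells, whose transgenic receptor sees an ovalbumin peptide. By the same labels they were marked congenically and given to C57Bl/6 hosts 1 day before infection with ovalbumin-expressing Listeria. They were recovered on day 6 of infection. The labels name neither the driver of the Acly deletion nor the animals behind each library, so p-values measure only the spread between these libraries, which may be technical.

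BCL2 family proteins decide whether a cell's mitochondria release the factors that start apoptosis. BCL2, BCL-XL (the product of Bcl2l1) and MCL1 hold BAX and BAK in check, BAX and BAK form pores in the outer mitochondrial membrane when released, and BH3-only proteins sense stress or loss of survival signals and tip the balance towards death. In CD8 T cells BCL2 is known as a protein of naive and memory cells that falls in effector cells, and BIM, the product of Bcl2l11, as a main driver of the loss of effector cells after an infection. FOXO transcription factors are known regulators of Bcl2l11 and Bbc3.

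Because of that known regulation, the upstream sequences of the members were searched for the FOXO core motif TGTTTAC on both strands, over the 250 bases before each RefSeq start (GRCm38.p6). Of the 10 members 9 were matched, with 15 windows in all; Pmaip1 was not. The motif was found for Bcl2l11 and Bbc3 and for no other matched member, and 3.17% of 32851 windows of all genes hold it. That share counts windows, of which a gene can have more than 1, so it is not a share of genes. The Bcl2l11 segment lies upstream of the gene (chr2:128125788-128125847, plus strand), with the motif 220 bases before the start. The Bbc3 segment lies in an intron (chr7:16310064-16310130, plus strand), with the motif 160 bases before an internal RefSeq start at which no GENCODE M21 transcript begins. Both are shown with the motif, or its reverse complement, in capitals.
Bcl2l11: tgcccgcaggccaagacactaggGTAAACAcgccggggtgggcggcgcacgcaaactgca
Bbc3: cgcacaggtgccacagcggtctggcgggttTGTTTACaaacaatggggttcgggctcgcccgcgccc
AGATAA, the GATA core, was found for Bcl2l1 alone (9.99% of all windows), and the NF-kB form for Bbc3, Bcl2l1 and Mcl1 (1.41%). Neither TTCNNNGAA, the STAT form (7.02% of all windows), nor CTTTGAT, the TCF form (3.21%), was in any member's window, and the windows of Bcl2, Bax, Bak1, Bid and Bad held none of the 5 motifs. These matches describe letters in the sequence and were not tested for binding.

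The libraries differed in more than genotype. Gene counts summed to between 37473484 and 39692359 in the KO libraries and between 45288353 and 75586011 in the WT libraries. Levels are given as CPM, counts divided by the TMM-scaled library size. Acly itself measured 392.7, 339, 414 and 276 CPM over WT replicates 1 to 4 against 262, 62.0 and 209 CPM over KO replicates 1 to 3. The groups did not overlap, but KO replicate 1 lay just below WT replicate 4, and Acly transcripts remained in every KO library, so KO stands throughout for libraries labelled ACLY KO. The difference in Acly did not pass in edgeR (adjusted p = 0.278) or DESeq2 (adjusted p = 0.133) and passed in limma voom (adjusted p = 0.0449). The 9 CD8 T cell markers, led by Cd8b1 and Cd3e, were found in all libraries; they summed to 2940 to 6646 CPM in KO and 6459 to 8297 CPM in WT, with KO replicate 1 lowest, and 5 of the 9 genes lay below WT in all KO libraries. Markers of several other cells were higher in KO. The 9 B cell markers, led by Ighm and Cd79a, summed to 627 to 8874 CPM in KO and 244 to 677 CPM in WT, where most of the sum was Ighm; 8 of the 9 genes did not overlap between the groups. The 9 macrophage and monocyte markers, led by Lyz2 and Csf1r, summed to 63.9 to 1199 CPM in KO and 37.7 to 55.5 CPM in WT, with 5 of 9 genes higher in all KO libraries. The 6 red cell markers, led by Hbb-bs and Hba-a1, summed to 46338, 6465 and 238 CPM in KO replicates 1 to 3 and 1.48 to 468 CPM in WT, so that the groups overlapped. The 3 neutrophil markers found (S100a8, S100a9 and Csf3r) summed to 8.96 to 335 CPM in KO and 0.322 CPM or less in WT. Sums over NK cell markers (Klrb1c and Cd160 leading) were 62.8 to 169.9 CPM in KO and 175 to 275 CPM in WT, although 2 of the 4 genes, Ncr1 and Tyrobp, were higher in all KO libraries and 1, Cd160, lower. They were, over CD4 T cell markers (Ctla4 and Zbtb7b leading) 19.2 to 205 and 52.0 to 56.7 CPM, and over dendritic cell markers (Itgax and Xcr1 leading) 38.4 to 267 and 165 to 412 CPM. Of the 4 CD4 T cell genes measured, 1, Cd4 itself, was higher in all KO libraries and 0 were lower. Cd4 measured 110, 1.19 and 6.19 CPM over KO replicates 1 to 3 and 0.157 CPM or less in WT. Trbv12-1 and Trbv12-2, the segments of the V beta family of the OT-I receptor, held 46.7%, 23.2% and 61.8% of Trbv counts in KO replicates 1 to 3. In WT replicates 1 to 4 they held 99.0%, 99.2%, 99.0% and 84.5%. The remaining Trbv counts fell on segments outside that family, so the KO libraries held more receptor transcripts that are not of the OT-I family. Which cells these came from was not tested. WT replicate 4 also had 2986 CPM over the 10 cell cycle genes, led by Top2a and Rrm2, against 131 to 714 CPM in the other 6 libraries. The part of these differences in the results that follow was not tested unless a value is given. In such bulk samples, fewer cells of a type and less RNA per cell cannot be told apart.

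Across the family, the 3 KO libraries all exceeded the 4 WT libraries for Bcl2, all lay below them for Bax, Bad and Pmaip1, and overlapped with them for the other 6 members. No member passed the edgeR quasi-likelihood test once p-values were adjusted over all genes by Benjamini-Hochberg; the share of all genes that passed was 0%. At an unadjusted p under 0.05 the same test counted 4 of 10 members, Bcl2 higher and Bax, Bad and Pmaip1 lower, where 18.8% of all genes were counted, 11% higher and 7.89% lower. Of all genes 9.46% lay wholly above and 9.03% wholly below the WT libraries in KO. DESeq2 called Bcl2 higher and Bad lower. Of the 15159 genes to which it gave an adjusted p, it called 6.81% higher and 3.43% lower. Over the members the median log2 difference was -0.05, with 5 above 0 and 5 below, against a median of 0.00 over all genes (8077 above 0 and 8079 below). Without KO replicate 1 the members wholly apart became 2 above (Bcl2 and Bcl2l11) and 5 below (Bax, Bak1, Bid, Bad and Pmaip1), beside 15.2% and 17.4% of all genes; without it and WT replicate 4 they were the same 7, beside 21.3% and 26.3%.

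**Figure D1:**
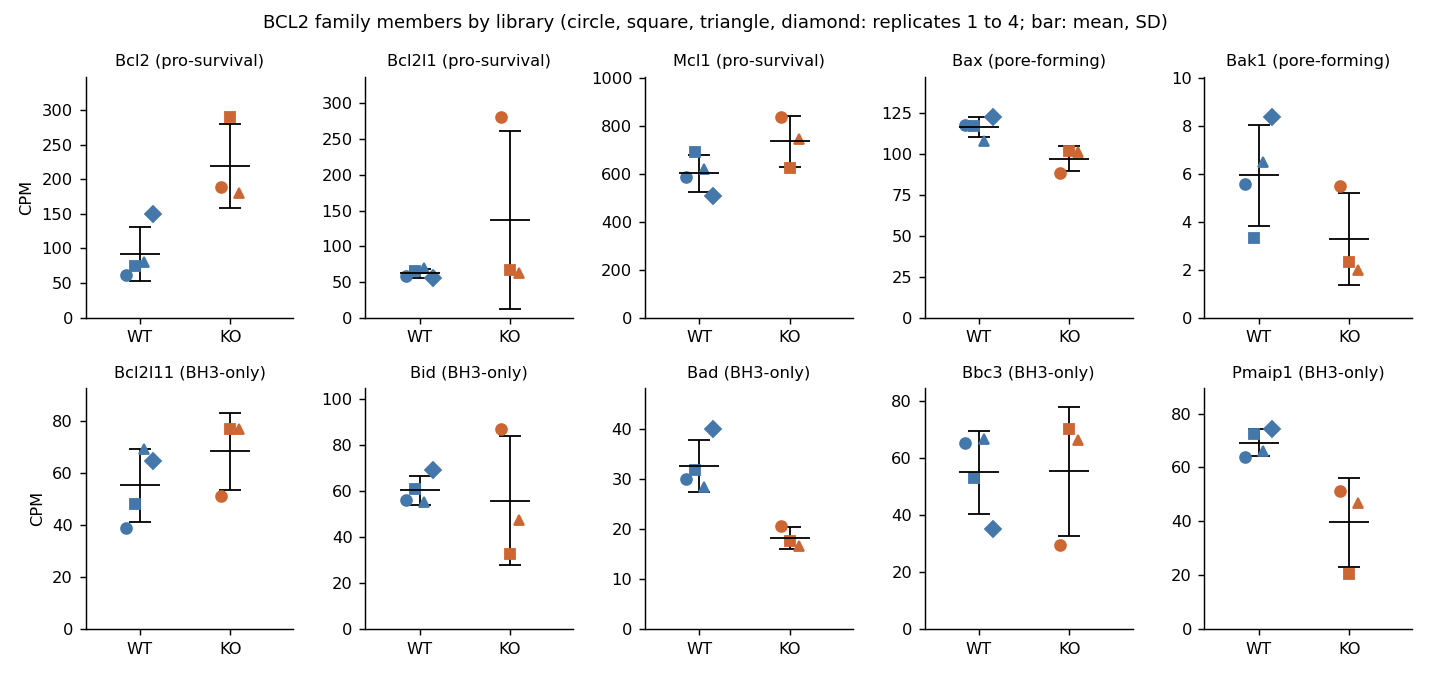
CPM of each member (vertical axes, from 0) in the 4 WT libraries (blue) and 3 ACLY KO libraries (orange); marker shapes give the replicate number and bars the mean and SD. Bcl2 lies higher and Bax, Bad and Pmaip1 lower in every KO library, while Bcl2l1 is high only in KO replicate 1.

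Bcl2, the founding pro-survival member (chromosome 1, 106538178 to 106714274 in mm10, minus strand), showed the clearest pattern of the pro-survival genes. It measured 61.7, 75.1, 80.6 and 149.5 CPM over WT replicates 1 to 4 against 188, 289.8 and 179.9 over KO replicates 1 to 3. KO replicate 2 was the highest of the 7 libraries, and WT replicate 4 was closer to the lowest KO library than to the next WT library. Means were 219 ± 61.2 CPM for KO (SD, n = 3) against 91.8 ± 39.3 for WT (SD, n = 4), a ratio of 2.39. On the log2 scale the difference was 1.26 ± 0.33 (SE; 95% interval 0.49 to 2.02), which did not pass in edgeR (adjusted p = 0.111). DESeq2 (adjusted p = 0.00578) and limma voom with quality weights (adjusted p = 0.00909) called it. So did edgeR without WT replicate 4, with a log2 difference of 1.60 (adjusted p = 0.046), and with KO replicate 1 left out too, with 1.71 (adjusted p = 0.0214). Over 15 alternatives the adjusted p ran from 0.00578 to 0.289.

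Bcl2 stood beside the composition of the libraries. WT replicates 1 to 3, with 99.0% to 99.2% of Trbv counts on the 2 OT-I family segments, had the lowest Bcl2 levels. WT replicate 4 (84.5%) came next, then KO replicates 3 (61.8%) and 1 (46.7%), and KO replicate 2, with the smallest share (23.2%), had the most Bcl2. The Bcl2 level therefore followed the reverse order of the segment share among WT replicate 4 and the 3 KO libraries. The B cell marker sum did not follow that order: it was 8874 CPM in KO replicate 1 and 1119 CPM in KO replicate 2. Acly was also lowest in KO replicate 2 (62.0 CPM). KO replicates 3 (209 CPM) and 1 (262 CPM) came next, then WT replicate 4 (276 CPM), the lowest of the WT libraries. The part of the segment share, the B cell sum or Acly in the Bcl2 difference was not tested. Exons of D630008O14Rik on the other strand cover 6.09% of the merged exon length of Bcl2, and the counting is not stated to use strand.

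**Figure D2:**
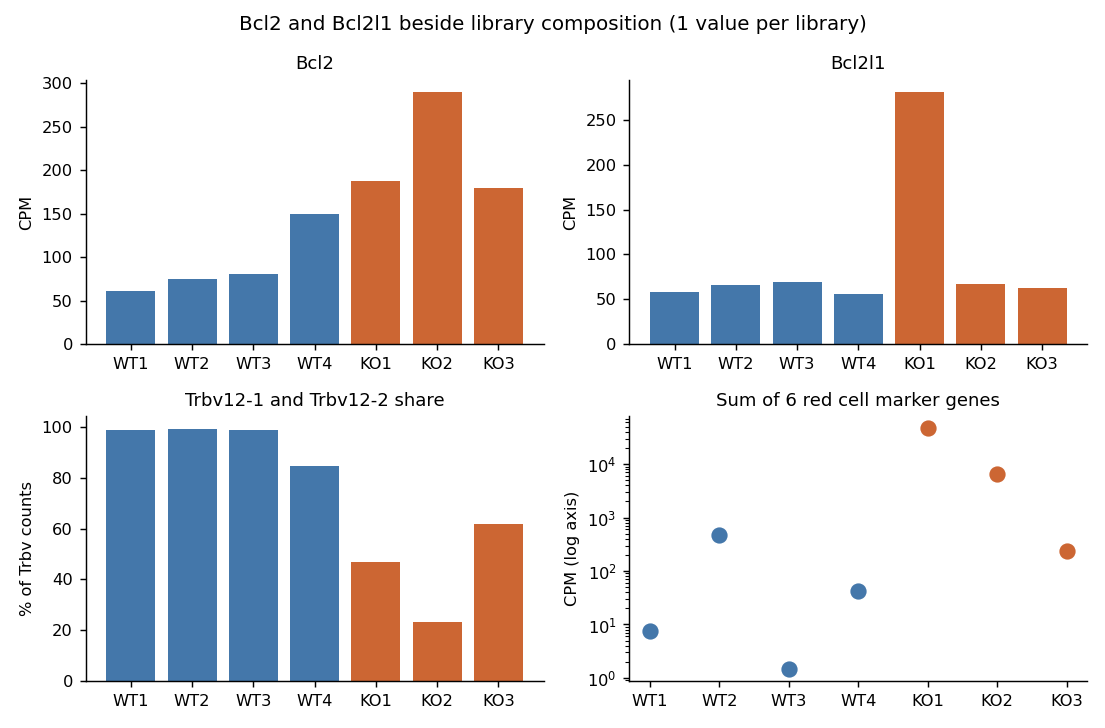
Bars and points give 1 value per library, WT in blue and ACLY KO in orange: Bcl2 and Bcl2l1 in CPM, the share of Trbv counts on Trbv12-1 and Trbv12-2 in percent, and the sum of 6 red cell markers in CPM on a log axis. Bcl2 is highest in KO replicate 2, where the segment share is lowest (23.2%), and Bcl2l1 in KO replicate 1, where the red cell sum is highest (46338 CPM). The B cell, macrophage and monocyte, neutrophil and CD4 T cell marker sums, not drawn here, were also highest in KO replicate 1. Acly, also not drawn, was lowest in KO replicate 2 (62.0 CPM).

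Bcl2l1, which encodes BCL-XL (chromosome 2, 152780668 to 152831728, minus strand), stood apart in 1 library only. It measured 57.7, 65.6, 69.3 and 55.6 CPM over WT replicates 1 to 4 against 281, 67.1 and 63.0 over KO replicates 1 to 3. KO replicates 2 and 3 lay inside the WT range, and KO replicate 1 was far above it. Its log2 difference of 1.14 ± 0.51 (SE; edgeR adjusted p = 0.283) was 0.07 once KO replicate 1 was left out. BCL-XL is known to protect maturing red cells, and KO replicate 1 was also the library with the largest red cell sum. The B cell (8874 CPM), macrophage and monocyte (1199 CPM), neutrophil (335 CPM) and CD4 T cell (205 CPM) sums were largest in it too. KO replicate 2 had a red cell sum of 6465 CPM with Bcl2l1 inside the WT range. The part of transcripts of any of these cells in the value of KO replicate 1 was not tested.

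Mcl1, the short-lived pro-survival protein that T cells need at every stage (chromosome 3, 95658788 to 95663176, plus strand), measured 588, 692, 622 and 508 CPM over WT replicates 1 to 4. KO replicates 1 to 3 were at 837, 626 and 748 CPM, so KO replicate 2 lay inside the WT range and the other two above it. The log2 difference was 0.29 ± 0.17 (SE; 95% interval -0.10 to 0.68; edgeR adjusted p = 0.404).

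The pore-forming genes were lower on average in KO. Bax (chromosome 7, 45461697 to 45466898, minus strand) varied least of the 10 members. It measured 118, 117, 108 and 123 CPM over WT replicates 1 to 4 against 88.4, 102 and 101 over KO replicates 1 to 3, without overlap. Its log2 difference was small, -0.26 ± 0.11 (SE), and did not pass in edgeR (adjusted p = 0.261). Bak1, its partner in pore formation (chromosome 17, 27019810 to 27029009, minus strand), was the scarcest member. It measured 5.57, 3.32, 6.47 and 8.36 CPM over WT replicates 1 to 4 against 5.48, 2.33 and 2.0 over KO replicates 1 to 3, from 78 to 493 counts a library. KO replicate 1 lay inside the WT range and the other KO libraries below it (log2 -0.86 ± 0.50, SE; edgeR adjusted p = 0.406; -1.46 without KO replicate 1). Exons of Ggnbp1 on the other strand cover 18.2% of its merged exon length.

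**Figure D3:**
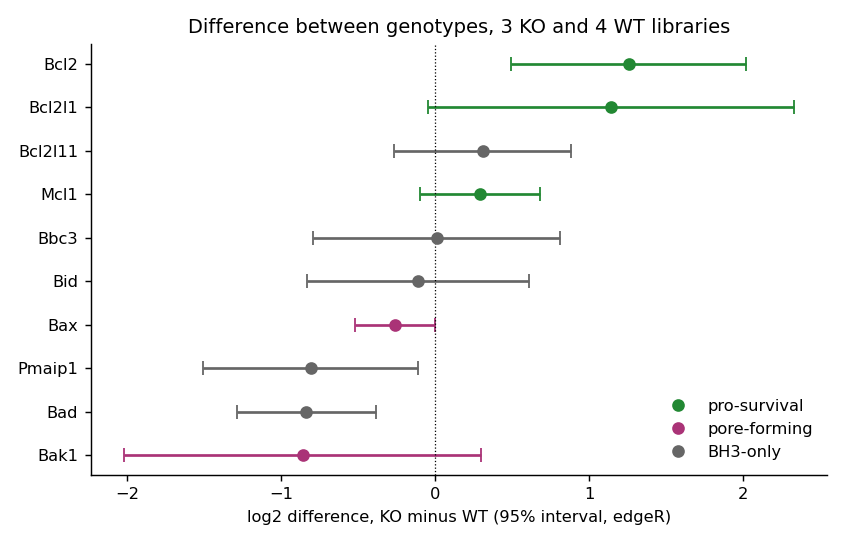
Log2 difference of each member (horizontal axis, KO minus WT) with its 95% interval from the edgeR fit over 3 KO and 4 WT libraries, coloured by role. The intervals of Bcl2, Bax, Bad and Pmaip1 do not reach 0, but these intervals are not adjusted for the number of genes and no member passed the adjusted test.

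Among the BH3-only genes, Bad and Pmaip1 were lower in every KO library and the other 3 overlapped. Bad, a sensitizer that binds BCL2 and BCL-XL (chromosome 19, 6941861 to 6951899, plus strand), measured 29.999, 31.9, 28.3 and 40.1 CPM over WT replicates 1 to 4. In KO replicates 1 to 3 it was at 20.7, 17.5 and 16.5 CPM, a narrow range below every WT library. Means were 18.2 ± 2.17 CPM for KO (SD, n = 3) against 32.6 ± 5.23 for WT (SD, n = 4), with a log2 difference of -0.84 ± 0.19 (SE; 95% interval -1.29 to -0.39). The unadjusted edgeR p of 0.00285 was the smallest of the 10 members and did not pass once adjusted over all genes (adjusted p = 0.0896). DESeq2 called it (adjusted p = 0.00183), as did edgeR when KO replicate 1 and WT replicate 4 were both left out (log2 -0.80, adjusted p = 0.0343). The adjusted p over 15 alternatives ran up to 0.257. Exons of Gpr137 on the other strand cover 20.5% of its merged exon length, so its count is uncertain.

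Pmaip1, which encodes NOXA, a BH3-only protein that targets MCL1, measured 63.8, 72.6, 66.0 and 74.4 CPM over WT replicates 1 to 4 against 51.2, 20.5 and 46.9 over KO replicates 1 to 3. KO replicate 2 was far below the rest. Its log2 difference was -0.81 ± 0.30 (SE; edgeR adjusted p = 0.209) and went to -0.50 without KO replicate 2.

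Bcl2l11 (chromosome 2, 128126038 to 128162547, plus strand), one of the genes with the FOXO motif shown above, measured 39.0, 48.1, 69.3 and 64.5 CPM over WT replicates 1 to 4. It measured 51.0, 77.1 and 76.8 CPM over KO replicates 1 to 3, so KO replicates 2 and 3 were above every WT library and KO replicate 1 was within them. In log2 terms Bcl2l11 differed by 0.31 ± 0.25 (SE; 95% interval -0.27 to 0.88; edgeR adjusted p = 0.559). Bbc3, the other gene with the motif, encodes PUMA (chromosome 7, 16308393 to 16318205, plus strand). It measured 65.2, 52.7, 66.6 and 35.2 CPM over WT replicates 1 to 4 against 29.3, 70.2 and 66.2 over KO replicates 1 to 3. KO replicate 1 and WT replicate 4 were the low libraries of their groups, and the other 5 lay between 52.7 and 70.2 CPM. The log2 difference was 0.01 ± 0.34 (SE; 95% interval -0.79 to 0.81; edgeR adjusted p = 0.993), and its sign turned with the libraries and the test used. Bid, the link from death receptors to mitochondria (chromosome 6, 120891930 to 120916853, minus strand), measured 56.3, 61.0, 55.2 and 69.1 CPM over WT replicates 1 to 4. KO replicates 1 to 3 were at 87.3, 32.8 and 47.4 CPM, so they lay on both sides of the WT libraries (log2 -0.11 ± 0.31, SE; edgeR adjusted p = 0.884), with -0.59 without KO replicate 1 and 0.16 without KO replicate 2. Exons of Bcl2l13 on the other strand cover 17.7% of its merged exon length.

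The ratio of Bcl2 to Bcl2l11 CPM sets a survival gene against the death gene that its protein binds. It was 1.58, 1.56, 1.16 and 2.32 in WT replicates 1 to 4 and 3.69, 3.76 and 2.34 in KO replicates 1 to 3. The lowest KO library was just above the highest WT library, and the mean ratio was 3.26 ± 0.80 for KO (SD, n = 3) against 1.66 ± 0.48 for WT (SD, n = 4). This ratio is a description without a test.

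To compare levels between genes, CPM was divided by the merged exon length in kilobases. In WT, Mcl1 was the most abundant transcript per length (176 ± 22.4 CPM per kb, SD, n = 4), followed by Bax (74.0 ± 3.82 CPM per kb). Bbc3 (25.9 CPM per kb) and Pmaip1 (25.3 CPM per kb) overlapped each other. Bid (17.0 CPM per kb) came next, then Bcl2l1, Bad, Bcl2 and Bcl2l11 at 13.5, 12.7, 10.02 and 6.88 CPM per kb, each overlapping its neighbour in that order. The other neighbouring genes in the WT order did not overlap. Bak1 was lowest (2.46 ± 0.87 CPM per kb). In KO the order kept Mcl1, Bax and Bak1 at its ends (216, 61.7 and 1.36 CPM per kb), while Bcl2 (24.0 CPM per kb) ranked 5, after 8 in WT, and Pmaip1 (14.5 CPM per kb) 7, after 4. Bcl2l1 (29.9 CPM per kb) ranked 3, after 6, on the value of KO replicate 1 alone.

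**Figure D4:**
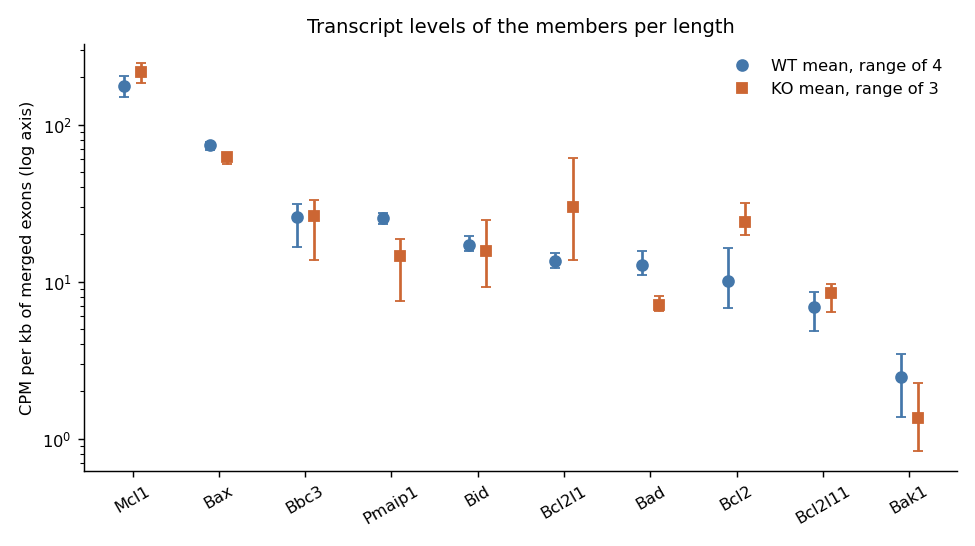
CPM per kilobase of merged exons (log axis) of the 10 members in order of the WT mean; points are group means and bars the range over the 4 WT (blue) or 3 ACLY KO (orange) libraries. Mcl1 is highest and Bak1 lowest in both genotypes.

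Bcl2 and Bcl2l1 varied most over the 7 libraries, and the genes with the most similar pattern were looked up among 8753 others with a mean log2 CPM of at least 3. Likeness was the root mean square difference of log2 CPM after centring each gene on its own mean over the 7 libraries. For Bcl2 the nearest were Ago2, an Argonaute protein of the microRNA machinery (0.208), Inpp4b, a phosphoinositide phosphatase (0.220), and Plekha1, a phosphoinositide-binding protein (0.229). As with Bcl2, WT replicate 4 was the highest WT library and KO replicate 2 the highest KO library for all 3; Inpp4b was at 113 CPM in WT replicate 4 and 196 CPM in KO replicate 2. For Bcl2l1 they were Syvn1, a ubiquitin ligase of the endoplasmic reticulum (0.109), Mkrn1, another ubiquitin ligase (0.147), and Skap2, an adaptor protein (0.156). Mkrn1 was at 1289 CPM in KO replicate 1 and at 204 to 258 CPM in the other 6 libraries. For both members the genes were picked for likeness over these same libraries, so the shared high libraries are no separate result.

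Of the 15 further genes listed as BCL2 family, 11 were measured, 7 above 0 and 4 below, with a median log2 difference of 0.35. This median is the value of Bnip3l, which was high in KO replicate 1 alone. None passed in edgeR. An unadjusted p under 0.05 was found for 3, of which 1 was higher and 2 lower in KO, beside 11% and 7.89% of all genes. DESeq2 called Bnip3 higher and Bcl2a1b lower, beside 6.81% and 3.43% of genes with a DESeq2 adjusted p. Bnip3, a mitophagy receptor induced by hypoxia, measured 5.80, 4.03 and 3.40 CPM over KO replicates 1 to 3 and 0.966 to 2.06 CPM in WT (log2 1.47 ± 0.40, SE; edgeR adjusted p = 0.12). The A1 genes encode pro-survival proteins and are near-identical copies, so their reads could be split among them. Bcl2a1b measured 5.85, 2.10 and 2.74 CPM over KO replicates 1 to 3 and 6.01 to 10.3 CPM in WT, below every WT library (log2 -1.28 ± 0.44, SE; edgeR adjusted p = 0.182). Bcl2a1d measured 20.9, 4.68 and 12.8 CPM in the KO libraries and 23.3 to 39.5 CPM in WT, also without overlap (log2 -1.16 ± 0.48, SE; edgeR adjusted p = 0.253). Bcl2a1a measured 7.38, 0.931 and 2.69 CPM in the KO libraries and 1.59 to 2.11 CPM in WT, on both sides of the WT range. Of the 3 copies, 2 therefore lay below WT. Because reads could be split among the copies, values of single copies do not show whether A1 as a whole was lower.

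**Figure D5:**
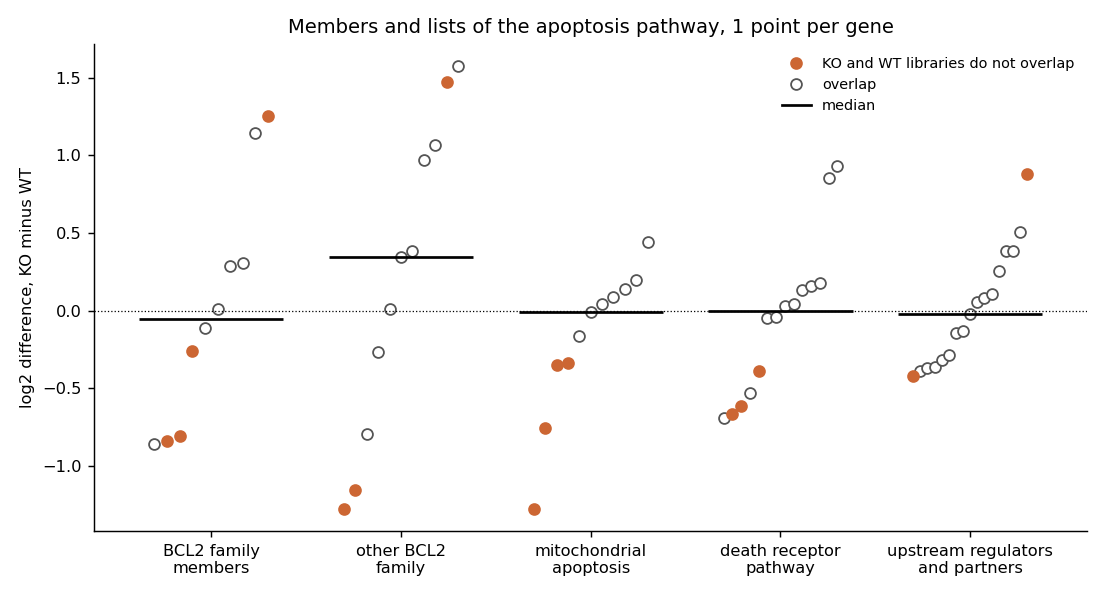
Log2 difference (KO minus WT, vertical axis) of each measured gene, 1 point per gene, for the 10 members and 4 lists of the apoptosis pathway; filled points are genes whose KO and WT libraries do not overlap and lines are medians. The medians lie close to 0 except for the other BCL2 family genes (0.35). That median is the value of Bnip3l, which was high in KO replicate 1 alone (399.8 CPM, against 137 to 193 CPM elsewhere).

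Downstream of the mitochondria, 5 of 11 listed genes were above 0 and 6 below (median log2 -0.01); 4 lay wholly below WT in KO and 0 wholly above, where 9.03% and 9.46% of all genes did. None passed in edgeR, where 2 had an unadjusted p under 0.05, both lower (7.89% of all genes). DESeq2 called 2 lower, Apaf1 among them (3.43% of genes with a DESeq2 adjusted p). Apaf1, the scaffold of the apoptosome (chromosome 10, 90989311 to 91082770, minus strand), measured 91.0, 83.7, 101 and 96.3 CPM over WT replicates 1 to 4. It measured 54.9, 57.1 and 53.6 CPM over KO replicates 1 to 3, a narrow range well below WT. The log2 difference was -0.75 ± 0.12 (SE; 95% interval -1.03 to -0.48). edgeR gave an adjusted p of 0.0651, while DESeq2 (adjusted p = 1.08e-06) and limma voom (adjusted p = 0.0274) called it, as did edgeR with KO replicate 1 and WT replicate 4 both left out (adjusted p = 0.0305). Cycs, cytochrome c, averaged 33.0 ± 1.85 CPM over the 3 KO libraries (SD) against 41.6 ± 5.80 over the 4 of WT (SD; edgeR adjusted p = 0.316).

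In the death receptor list 7 of 14 genes were above 0 and 7 below (median log2 0.00), with 3 wholly below WT in KO and none wholly above (9.03% and 9.46% of all genes). None passed in edgeR, and those 3 were the ones with an unadjusted p under 0.05, all lower (7.89% of all genes). Ripk1, a kinase of TNF receptor signalling, averaged 98.5 ± 22.1 CPM over the 3 KO libraries (SD) against 151 ± 13.8 over the 4 of WT (SD; log2 -0.61 ± 0.17, SE; edgeR adjusted p = 0.128; DESeq2 adjusted p = 0.0399; limma voom adjusted p = 0.0395). Tnfrsf1b, the TNF receptor without a death domain, averaged 128 ± 35.7 CPM in KO and 202 ± 22.2 CPM in WT (edgeR adjusted p = 0.158; limma voom adjusted p = 0.0343). Tradd, an adaptor of the other TNF receptor, averaged 77.2 ± 4.68 CPM in KO and 101 ± 12.2 CPM in WT (edgeR adjusted p = 0.178). DESeq2 called Ripk1 lower and no gene of this list higher (3.43% and 6.81% of genes with a DESeq2 adjusted p).

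Among 17 measured upstream regulators and partners, 8 were above 0 and 9 below (median log2 -0.02). None passed in edgeR, and DESeq2 called Foxo1 higher and Fbxw7 lower (6.81% and 3.43% of genes with a DESeq2 adjusted p). Foxo1, a FOXO factor of naive and memory T cells (chromosome 3, 52268336 to 52353221, plus strand), measured 177, 144, 203 and 235 CPM over WT replicates 1 to 4 against 238, 463 and 345 over KO replicates 1 to 3. KO replicate 1 was just above WT replicate 4, and KO replicate 2 was the highest, as for Bcl2. The log2 difference was 0.88 ± 0.25 (SE; edgeR adjusted p = 0.135), and DESeq2 (adjusted p = 0.0194) and limma voom (adjusted p = 0.0422) called it, as did edgeR with KO replicate 1 and WT replicate 4 both left out (adjusted p = 0.0258). The part of the lower Trbv12 share in this difference was not tested. Fbxw7, a ubiquitin ligase subunit that marks MCL1 for degradation, averaged 63.1 ± 6.35 CPM over the 3 KO libraries (SD) against 84.6 ± 4.87 over the 4 of WT (SD), without overlap (log2 -0.42 ± 0.12, SE; edgeR adjusted p = 0.135; DESeq2 adjusted p = 0.0438). Trp53, which encodes p53, averaged 214 ± 26.2 CPM in KO and 164 ± 29.1 CPM in WT and overlapped (edgeR adjusted p = 0.275).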

How the data were processed

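Total RNA of 7 libraries was sequenced. Per the submitters' processing notes, Trim Galore 0.6.0, STAR 2.7.8, DESeq2 and mm10 were used; how reads were assigned to genes, and on which strand, is not given in the sources used here. Raw counts of 16156 genes and a table of log2 CPM were deposited by the authors; the log2 values equalled those recomputed from the counts (TMM, prior count 2) within 4.99e-09 and supplied the symbols; GENCODE M21 supplied 2795 of 2810 missing ones, coordinates and exons.

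Genotypes were compared with edgeR 4.0.16 in R 4.3.3 (quasi-likelihood test, TMM scaling, no term but genotype), Benjamini-Hochberg adjustment over all genes and a threshold of 0.05. DESeq2 1.42.0, limma 3.58.1 (voom with quality weights), other scalings and filters, the replicate number as a block and left-out libraries were alternatives. A count of 3 equals 0.0397 to 0.0801 CPM before TMM scaling, and the members had 78 counts or more in every library. The members, lists and tests were chosen with earlier results of these data known. Genes named beside the members were, in each list, the 3 with the smallest unadjusted p among genes whose mean log2 CPM was 1 or more, plus every measured A1 gene; in each marker list, the 2 with the highest mean. Some genes that this rule names are not reported here. The edgeR and DESeq2 code was run on simulated data, which checks the code and not the calls made here. At the spread of these libraries edgeR missed most simulated 2-fold changes, so a gene that did not pass may still differ. DESeq2 made more false calls there than edgeR, so a call by DESeq2 alone is less certain. Upstream sequences came from RefSeq on GRCm38.p6. The 5 motifs were chosen after the levels were seen. Intervals cover the spread between these libraries, and no library was left out of the main values.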

Additional observations from a re-analysis of the deposited data

How the results depend on the processing

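edgeR called 0 members and 0 genes of all with the main settings, the other scalings, the filters and the replicate block. DESeq2 called 1 member higher and 1 lower (1032 and 520 of all genes), and limma voom called 1 member higher and none lower (860 and 272 of all genes). When each library was left out in turn, 0 to 1 members were called higher and 0 lower, with 0 to 142 genes higher and 0 to 48 lower (111 and 48 without KO replicate 1, 118 and 2 without KO replicate 2, 142 and 47 without KO replicate 3, 108 and 21 without WT replicate 4, and 0 without WT replicate 1, 2 or 3). With KO replicate 1 and WT replicate 4 both left out, edgeR called 1 member higher and 1 lower (864 and 668 of all genes). Of 150 recomputed log2 differences of the members, 137 kept their direction and their side of the threshold, 6 passed it (Bcl2 in 4 settings and Bad in 2) and 7 changed sign. The setting without a filter repeats the main fit, because the filter removed 0 genes, so its values were the same by construction. Bbc3 (0.01; -0.20 to 0.31 with 1 library left out) turned to -0.22 with limma voom, -0.24 with the replicate block, -0.01 without WT replicate 2, -0.14 without WT replicate 4, -0.20 without KO replicate 2 and -0.14 without KO replicate 3. Bid ran from -0.59 without KO replicate 1 to 0.16 without KO replicate 2. Among 13 further genes of the lists, 2 of 195 values changed sign, both of Bcl2a1a: -0.050 without KO replicate 1 (1.43 without KO replicate 2) and -0.0066 when WT replicate 4 was also left out. The NK cell marker difference (log2 -0.88 from the sum) turned to 0.53 as a mean of log2(CPM + 1). The cause was not tested. In the replicate block fit Bcl2 had a log2 difference of 1.57 (edgeR adjusted p = 0.225). WT replicate 4 has no KO library of its number, so it adds nothing to the genotype difference in that fit. Same-numbered KO and WT libraries had deviations from their group means that correlated at -0.11, -0.05 and 0.14 across genes, so the numbers were not taken as pairs. Counts of members wholly apart, and at an unadjusted p under 0.05, were also recomputed without KO replicates 1, 2 and 3 and WT replicate 4. That choice was made after seeing the data. Each KO library had fewer counts than any WT library; no member was at 0 in any library.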

Other observations

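Several further genes of the pathway were highest in KO replicate 1. They were chosen after their values were seen. Birc3, an inhibitor of apoptosis protein, was at 193 CPM in KO replicate 1, 88.9 and 75.6 CPM in KO replicates 2 and 3, and 33.2 to 78.9 CPM in WT. KO replicate 2 thus also lay above every WT library for Birc3. Bmf, a BH3-only gene, was at 12.6 CPM in KO replicate 1 and at 1.14 to 3.76 CPM in the other 6 libraries. Bnip3l, a mitophagy receptor that clears mitochondria from maturing red cells, was at 399.8 CPM in KO replicate 1 and at 137 to 193 CPM elsewhere. KO replicate 1 had the largest B cell, macrophage and red cell marker sums of the 7 libraries, and their part in these values was not tested.

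Fas and Fasl, a death receptor and its ligand, were also chosen after their values were seen; both were low in WT replicate 4 and in KO replicates 1 and 2. Fasl measured 43.4, 81.9, 74.5 and 19.4 CPM over WT replicates 1 to 4 against 17.8, 24.9 and 59.3 over KO replicates 1 to 3. In the same order Fas measured 66.8, 74.4, 55.0 and 25.3 CPM against 26.5, 34.5 and 53.9. For both, WT replicates 1, 2 and 3 exceeded KO replicates 1 and 2, WT replicate 4 did not, and the groups overlapped (edgeR adjusted p = 0.527 for Fas and 0.579 for Fasl).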
